A study of Mus musculus with 16 samples.

Results

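The liver makes most of the insulin-like growth factor 1 (IGF-1) that circulates, together with several of the proteins that carry it. The 7 genes described here encode IGF-1 (Igf1), the acid-labile subunit that joins IGF-1 and a binding protein in a stable complex in blood (Igfals), and the binding proteins Igfbp1, Igfbp2, Igfbp3, Igfbp4 and Igfbp7. They were chosen by name, as the parts of the circulating IGF system and a liver signal that reaches bone, and not by a cut on their values. Earlier results of these data were known at the time of the choice. All 7 were among the 15544 genes listed for liver, and all 7 passed the filter on low values that left 12704 genes for testing.

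Liver RNA was sequenced in bulk from female mice aged 27 weeks in 16 libraries, with 4 libraries in each of 4 groups. Controls carried the floxed allele of Esr1, the gene for oestrogen receptor alpha (Esr1fl/fl), on a mixed CD-1;129P2 background. Mutants (Esr1Nkx2-1Cre) carried the same floxed alleles and in addition a Cre recombinase under control of Nkx2-1, a gene active in the ventral hypothalamus and also in some tissues outside it, so the deletion was not aimed at the liver. Mice of both genotypes had chow (Control_Chow and Mutant_Chow) or 17 weeks of a high-fat diet, HFD (Control_HFD and Mutant_HFD). The paper reports that HFD reversed the high bone mass of mutant females. Liver was among the tissues it profiled for gene changes that go with this loss, in its search for a circulating factor. Replicates were numbered in sample order within a group, so equal numbers do not pair libraries.

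Pituitary growth hormone acts on its receptor in hepatocytes and, through JAK2 and STAT5, maintains transcription of Igf1 and Igfals. In blood, IGF-1 is held mostly in a complex with IGFBP-3 and the acid-labile subunit, which slows its clearance, and free or loosely bound IGF-1 acts on the IGF-1 receptor in bone and other tissues. IGFBP-1 and IGFBP-2 bind IGF-1 without the acid-labile subunit. Igfbp1 transcription is raised by fasting and lowered by insulin through FOXO1, and Igfbp2 is likewise higher in fasting and lower in obesity. IGFBP-4 mostly restrains IGF-1 until it is cut by the protease PAPP-A, and IGFBP-7 is a related protein that binds IGF-1 weakly. In liver, Igf1, Igfals, Igfbp1 and Igfbp2 are products of hepatocytes, whereas Igfbp3 and Igfbp7 are also made by endothelial and other non-parenchymal cells.

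Values are given as size-factor-adjusted TPM, a share of the library corrected for transcript length and then scaled between libraries, so levels can be set side by side between genes. The unit keeps no read depth, so the depth of the libraries is unknown and precision rests on the spread between libraries. Column totals were 905897 to 1119703, and 11834 to 12443 genes had a value of 1 or more. Albumin (Alb) was between 36044 and 79775 with a median of 57430. None of 8 hepatocyte markers had an unadjusted limma p under 0.05 between genotypes or diets, where 6.08% to 12.9% of all tested genes did. Esr1 itself, which the Cre was not expected to remove from liver, was 11.7 ± 3.45 in Control_Chow and 13.6 ± 5.54 in Mutant_Chow (SD, n = 4), with 7.21 ± 0.825 in Control_HFD and 17.7 ± 7.60 in Mutant_HFD. In bulk tissue, fewer cells of a type and less RNA per cell cannot be told apart. The numbers in the library titles fell into 4 series, 2 within each diet, whose meaning the labels do not give; on HFD the lower-numbered series held Control_HFD replicates 1 to 3 and Mutant_HFD replicate 1, and the higher-numbered series held the remaining 4 HFD libraries. Genotype and title series therefore nearly coincided on HFD, and the part of each in an HFD difference between genotypes cannot be fully told apart.

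Promoter sequence is shown for Igfbp1 and Igfals, because their regulation by insulin and by growth hormone is the background to the diet and series comparisons that follow. A promoter window here is the 250 bases before and 50 bases after a transcript start in RefSeq (GRCm38.p6), of which the first 240 are printed 5′ to 3′. The Igfbp1 stretch is chr11:7197537-7197776 on the plus strand. Its capitals mark CAAAACA, at positions -108 to -102 from the start site, and TTATTTTG, at -98 to -91, letters known from insulin-responsive promoters of this gene.
Igfbp1: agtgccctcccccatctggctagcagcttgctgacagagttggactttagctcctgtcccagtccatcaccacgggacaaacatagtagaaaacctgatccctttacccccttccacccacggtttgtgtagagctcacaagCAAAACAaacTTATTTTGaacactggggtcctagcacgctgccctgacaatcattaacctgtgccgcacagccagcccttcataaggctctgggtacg
The Igfals stretch is chr17:24877981-24878220 on the plus strand, from 1 of 3 windows that RefSeq gives for this gene. The capitals mark TTCCTAGAA, at -58 to -50, a match to TTCNNNGAA, the letters that STAT5 recognises.
Igfals: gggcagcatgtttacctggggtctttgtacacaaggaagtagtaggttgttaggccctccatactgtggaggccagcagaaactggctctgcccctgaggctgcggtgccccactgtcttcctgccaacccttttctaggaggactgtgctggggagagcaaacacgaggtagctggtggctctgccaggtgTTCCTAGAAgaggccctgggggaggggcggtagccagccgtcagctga
Searched on both strands, CAAAACA was present in 6.28% of 32851 windows and TTATTTTG in 1.66%, and the 62 windows with both made up 0.189%. The letters TTCNNNGAA were present in 8.30% of windows, and a second Igfals window held them as TTCTCAGAA. The marked motifs do not overlap each other. Windows of Igf1, Igfbp2, Igfbp3, Igfbp4 and Igfbp7 held none of the 3 patterns, which says only that those letters are not in those windows.

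The 7 levels fell into 4 steps that held in every library. Igfbp4 was the most abundant, at 1064 ± 141 (SD, n = 16), and exceeded Igfbp2 in 16 of 16 libraries. Igfbp2 (550 ± 164) and Igf1 (522 ± 76.9) were not separated, since Igfbp2 was the higher in 6 of 16 libraries. A wide step followed, to Igfbp7 (157 ± 27.5) and Igfals (140 ± 19.98), and Igfbp7 was the higher of these in 12 of 16. Another step led to Igfbp3 (41.2 ± 5.71) and Igfbp1 (40.9 ± 33.4), with Igfbp3 higher in 11 of 16 libraries. On HFD Igfbp3 was above Igfbp1 in all 8 libraries, whereas on chow it was above it in 3 of 8. The spread over all libraries was smallest for Igfbp4, with a coefficient of variation of 13.2%, and largest for Igfbp1, at 81.7%, whose highest library was 46.9 times its lowest.

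**Figure D1:**
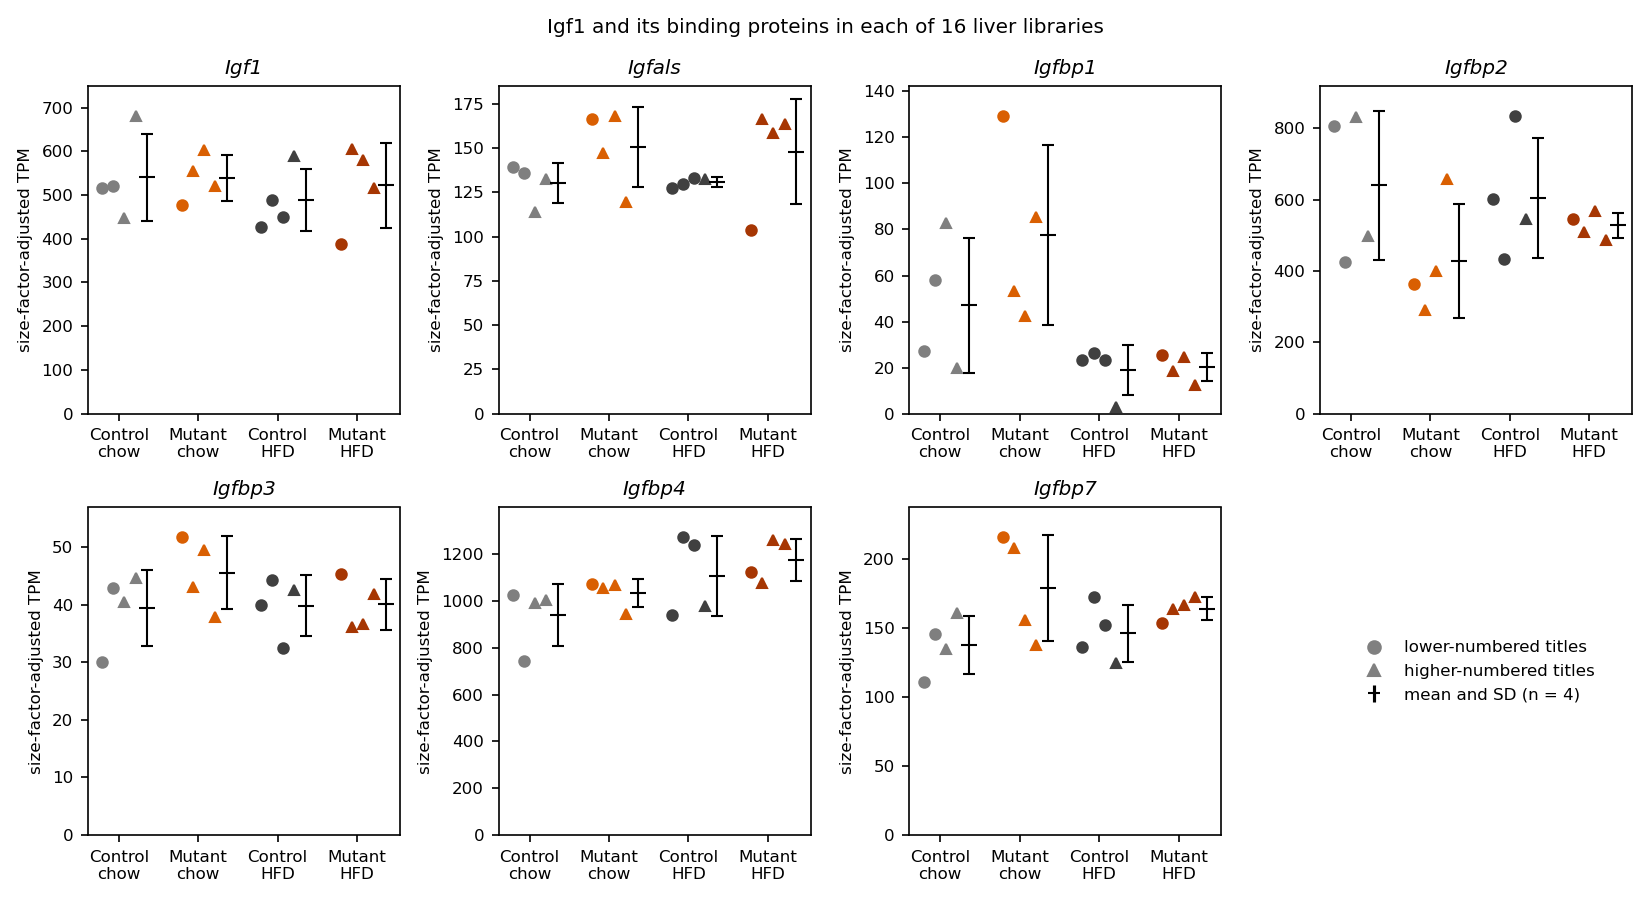
Size-factor-adjusted TPM (vertical axes, from 0) of the 7 genes in each of 16 liver libraries by group. Circles and triangles are libraries of the lower-numbered and higher-numbered title series, and the black mark is the mean with SD (n = 4). Igfbp1 was at or below 26.5 in all 8 HFD libraries and above that in 7 of 8 chow libraries, while the other genes overlapped between diets.

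Igf1 (ENSMUSG00000020053) lies on chromosome 10, 87858265 to 87937042 on the plus strand (GRCm38), and is protein-coding, as are the other 6 genes. On chow it was at 515, 521, 447 and 681 in Control_Chow replicates 1 to 4. The Mutant_Chow libraries had 478, 555, 602 and 520. These ranges overlapped almost completely, and their means, 541 ± 99.4 and 539 ± 52.8, differed by a log2 fold change of 0.0058 (mutant minus control, SE 0.162, 95% interval -0.34 to 0.35, limma adjusted p = 1.00). Of all tested genes, 97.3% differed between the genotypes on chow by at least this much. On HFD the controls were at 427, 489, 449 and 588, and the mutants at 388, 604, 580 and 516. Here the mutant group held both the lowest and the highest library, and the log2 fold change was 0.088 (SE 0.162, 95% interval -0.26 to 0.43, limma adjusted p = 0.868). With the title series as a term in the fit, the Igf1 difference on HFD was -0.14 in place of 0.088, and it did not pass the threshold in either. HFD against chow gave -0.14 in controls and -0.060 in mutants (limma adjusted p = 0.727 and 0.982).

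Igfals (ENSMUSG00000046070, chromosome 17, 24865997 to 24882010, plus strand) encodes the subunit that growth hormone induces alongside IGF-1. The Control_Chow libraries were at 139, 136, 114 and 133, and the Mutant_Chow libraries at 166, 147, 168 and 120. In 3 of 4 mutants on chow the level was above every control, and the log2 fold change was 0.20 (SE 0.148, limma adjusted p = 0.946). The Control_HFD libraries were nearly equal, at 127, 129, 133 and 132. In Mutant_HFD the values were 104, 167, 158 and 163, so replicates 2 to 4 were above every control and replicate 1 was below every control. The HFD log2 fold change was 0.15 (SE 0.148, limma adjusted p = 0.727), and it was -0.014 with the title series as a term. Diet moved the group means by 0.0070 in controls and -0.035 in mutants on the log2 scale (limma adjusted p = 0.988 and 0.986). The ratio of Igf1 to Igfals was 3.77 ± 0.533 over the 16 libraries, and its group means lay between 3.55 in Mutant_HFD and 4.15 in Control_Chow.

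Igfbp1 (ENSMUSG00000020429, chromosome 11, 7197782 to 7202546, plus strand) encodes the binding protein that insulin suppresses within hours of feeding. In Control_Chow it was at 27.1, 58.0, 83.0 and 19.8, and in Mutant_Chow at 129, 53.4, 42.2 and 85.3. The Control_HFD libraries had 23.2, 26.5, 23.4 and 2.76, and the Mutant_HFD libraries 25.5, 18.3, 24.6 and 12.5. Every HFD library of either genotype was at or below 26.5, whereas 7 of 8 chow libraries were above that value and the other, Control_Chow replicate 4, was at 19.8. The mean was 62.3 on chow and 19.6 on HFD over both genotypes. In controls the HFD mean was 0.403 times the chow mean, a log2 fold change of -1.39 (SE 0.586, 95% interval -2.64 to -0.15, limma adjusted p = 0.332). In mutants it was 0.261 times the chow mean, with a log2 fold change of -1.81 (SE 0.586, 95% interval -3.05 to -0.56, limma adjusted p = 0.623), and the groups did not overlap. Of all tested genes, 0.669% differed as much in controls and 0.370% in mutants. By limma p, which takes in the wide spread of Igfbp1, it ranked 1181 in controls and 146 in mutants among 12704 genes. The lower Igfbp1 level on HFD thus held in both genotypes by value, without passing the adjusted threshold in either, and the 2 diet effects differed by -0.41 (SE 0.829, limma adjusted p = 0.938). No title series spans both diets, and the effects of diet and of series cannot be told apart. Without Control_HFD replicate 4, the library at 2.76, the difference in controls was -0.71 (limma adjusted p = 0.591).

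Between genotypes Igfbp1 varied widely within groups. Mutants were higher than controls by 0.80 on chow (SE 0.586, limma adjusted p = 0.939) and by 0.38 on HFD (SE 0.586, limma adjusted p = 0.837). The chow value ran from 0.47 without Control_Chow replicate 4 to 1.14 without Control_Chow replicate 3. On HFD the direction depended on the processing: the value was -0.30 without Control_HFD replicate 4 and -0.26 with library weights, but 1.19 with the title series as a term in the fit (SE 0.561, limma adjusted p = 1.00). The ranges of 19.8 to 83.0 in controls and 42.2 to 129 in mutants on chow overlapped.

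Igfbp2 (ENSMUSG00000039323, chromosome 1, 72824503 to 72852474, plus strand) was the second most abundant binding protein transcript. Control_Chow libraries were at 806, 424, 831 and 498, in a high and a low pair. Mutant_Chow libraries were at 364, 291, 399 and 657, and 3 of them were below every control. The log2 fold change was -0.59 (SE 0.263, 95% interval -1.14 to -0.026, limma adjusted p = 0.804). On HFD the controls had 602, 434, 835 and 545, and the mutants 547, 510, 567 and 488. All mutants on HFD lay inside the control range, and the log2 fold change was -0.16 (SE 0.263, limma adjusted p = 0.853). The diet differences were -0.063 in controls and 0.37 in mutants (limma adjusted p = 0.94 and 0.848).

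Igfbp3 (ENSMUSG00000020427, chromosome 11, 7206086 to 7213923, minus strand) carries most IGF-1 in blood, yet its transcript was low in liver. It ends 3539 bases from the end of Igfbp1, and the 2 genes are transcribed towards each other. The Control_Chow values were 30.0, 42.8, 40.4 and 44.5, and the Mutant_Chow values 51.7, 43.1, 49.6 and 37.9. After HFD, controls had 39.9, 44.3, 32.4 and 42.6 and mutants 45.4, 36.2, 36.7 and 41.9. All 4 groups overlapped. The log2 fold change between genotypes was 0.21 on chow and 0.011 on HFD (SE 0.144 for both, limma adjusted p = 0.923 and 0.988). Despite their position, Igfbp1 and Igfbp3 did not vary alike: their Pearson coefficient over the 16 libraries was 0.21.

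Igfbp4 (ENSMUSG00000017493, chromosome 11, 99041244 to 99054392, plus strand) had the smallest spread over all libraries. Control_Chow libraries had 1024, 745, 991 and 1002, and Mutant_Chow libraries 1071, 1055, 1069 and 943. HFD controls were at 940, 1272, 1237 and 979, and HFD mutants at 1123, 1078, 1262 and 1243. In mutants, every HFD library was above every chow library, by 0.18 in the log2 means (SE 0.137, limma adjusted p = 0.854). In controls the diet difference was 0.23 (SE 0.137, limma adjusted p = 0.483) and the groups overlapped. Mutants exceeded controls by 0.15 on chow and 0.098 on HFD (limma adjusted p = 0.963 and 0.819).

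Igfbp7 (ENSMUSG00000036256, chromosome 5, 77349240 to 77408041, minus strand), the weak binder of IGF-1 that is abundant in endothelium, was at 111, 145, 134 and 161 in Control_Chow. Mutant_Chow libraries had 215, 208, 155 and 138. Replicates 1 and 2 of the mutants were above every control, and replicates 3 and 4 lay inside the control range. The log2 fold change was 0.36 (SE 0.155, 95% interval 0.035 to 0.69, limma adjusted p = 0.804). After HFD the controls had 136, 172, 152 and 125 and the mutants 153, 163, 167 and 172, a log2 fold change of 0.17 (SE 0.155, limma adjusted p = 0.704). The diet differences were 0.087 in controls and -0.10 in mutants (limma adjusted p = 0.835 and 0.951).

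Counted together, none of the 7 genes passed an adjusted p of 0.05 in limma in any of the 5 comparisons. Between genotypes on chow, 2 of 7 had an unadjusted p under 0.05 (Igfbp7 higher and Igfbp2 lower in mutants), where the share over all tested genes was 6.08%, and the share past the adjusted threshold was 0.0236%. Between genotypes on HFD the count was 0 of 7 against 8.6% of all genes (0.0157% adjusted). Between diets it was 1 of 7 in controls against 12.9%, and 1 of 7 in mutants against 6.86%, Igfbp1 in both, with 0% of genes past the adjusted threshold. For the interaction of genotype and diet it was 0 of 7 against 4.21% (0% adjusted). Groups did not overlap for 2 of 7 genes between diets in mutants (Igfbp1 lower, Igfbp4 higher on HFD), where 3.53% of all genes did not overlap, and for none of the 7 in the other 3 comparisons of groups (3.05%, 2.69% and 6.36% of all genes). With the title series as a term, the HFD differences between genotypes were -0.10 for Igfbp2, 0.037 for Igfbp3, 0.13 for Igfbp4 and 0.21 for Igfbp7, each in the direction of the fit without it, and none of the 7 passed the adjusted threshold. The median log2 fold change of the 7 was 0.20 between genotypes on chow against 0.020 over all genes, and 0.098 on HFD against 0.016. Between diets it was 0.0070 in controls and -0.060 in mutants, against -0.0094 and -0.011. These comparisons share groups with each other, so their values are not independent.

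**Figure D2:**
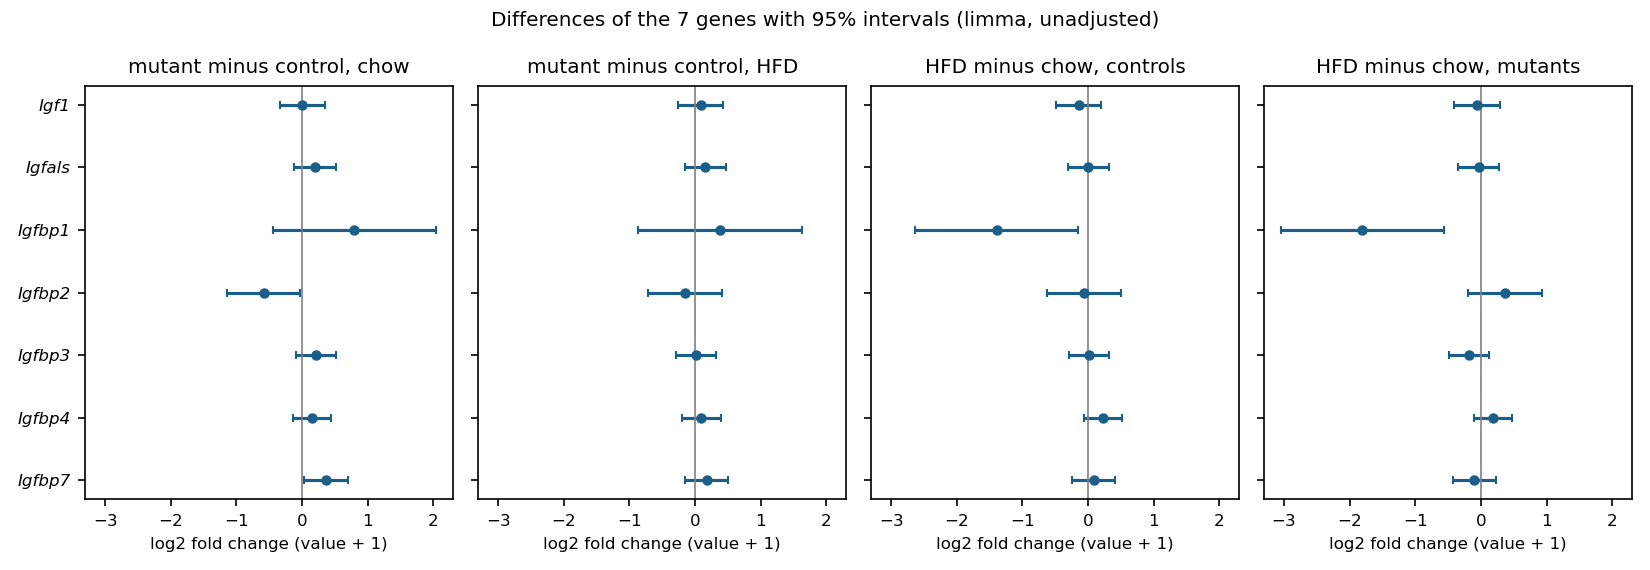
Log2 fold changes (horizontal axis, log2 of value + 1) of the 7 genes in the 4 comparisons of groups, with 95% intervals from limma that are not adjusted for the number of genes. The intervals of Igfbp1 between diets (-2.64 to -0.15 in controls and -3.05 to -0.56 in mutants) and of Igfbp2 and Igfbp7 between genotypes on chow leave out 0, and no gene passed the adjusted threshold.

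The chow differences of Igfbp2 and Igfbp7 were measured in a group with uneven acute-phase expression. The summed level of 16 acute-phase genes, hepatocyte products such as serum amyloid A and haptoglobin that inflammation induces, was 11814 to 13034 in Control_Chow. In Mutant_Chow it was 25473, 129737, 13130 and 13683 in replicates 1 to 4. It was 11592 to 31389 in Control_HFD and 12376 to 17358 in Mutant_HFD. Of the 16 genes, 7 were higher in mutants on chow at an unadjusted p under 0.05 (4.23% of all genes were) and none at an adjusted p, with a median log2 fold change of 1.19. By smallest p these were led by Cp (1.17), Apcs (1.42), Lcn2 (3.35) and Itih4 (0.71), where Cp encodes the copper carrier ceruloplasmin and Lcn2 the iron-scavenging lipocalin 2. Within Mutant_Chow, replicates 1 and 2 were the highest in acute-phase genes and in Igfbp7 and the lowest in Igfbp2. The same did not hold in Control_HFD, where replicate 1 had the second highest acute-phase sum of all 16 libraries (31389), with Igfbp7 at 136 and Igfbp2 at 602. At an unadjusted p under 0.05, 1 of 16 was lower in mutants on HFD, where 8.6% of all genes differed in either direction. Between diets none differed in controls (12.9% of all genes did) and 7 were lower on HFD in mutants (6.86% differed). For the interaction 4 were lower (4.21% differed). The diet comparison in mutants and the interaction include the same uneven Mutant_Chow libraries, so these counts are not separate results. Without Mutant_Chow replicates 1 and 2, in an alternative chosen after seeing the data, the Igfbp2 difference was -0.26 and that of Igfbp7 was 0.10. In that fit 0 of 7 genes had an unadjusted limma p under 0.05 between genotypes on chow. Over all 12704 tested genes 367 did, against 772 in the main fit, so the loss was not particular to the 7. These 2 libraries were also the extremes of their group in both genes, so both differences had to shrink without them, and the part of acute-phase expression in them was not tested. The Igf1 libraries at 478 and 555 in the same mutants lay within the control range.

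**Figure D3:**
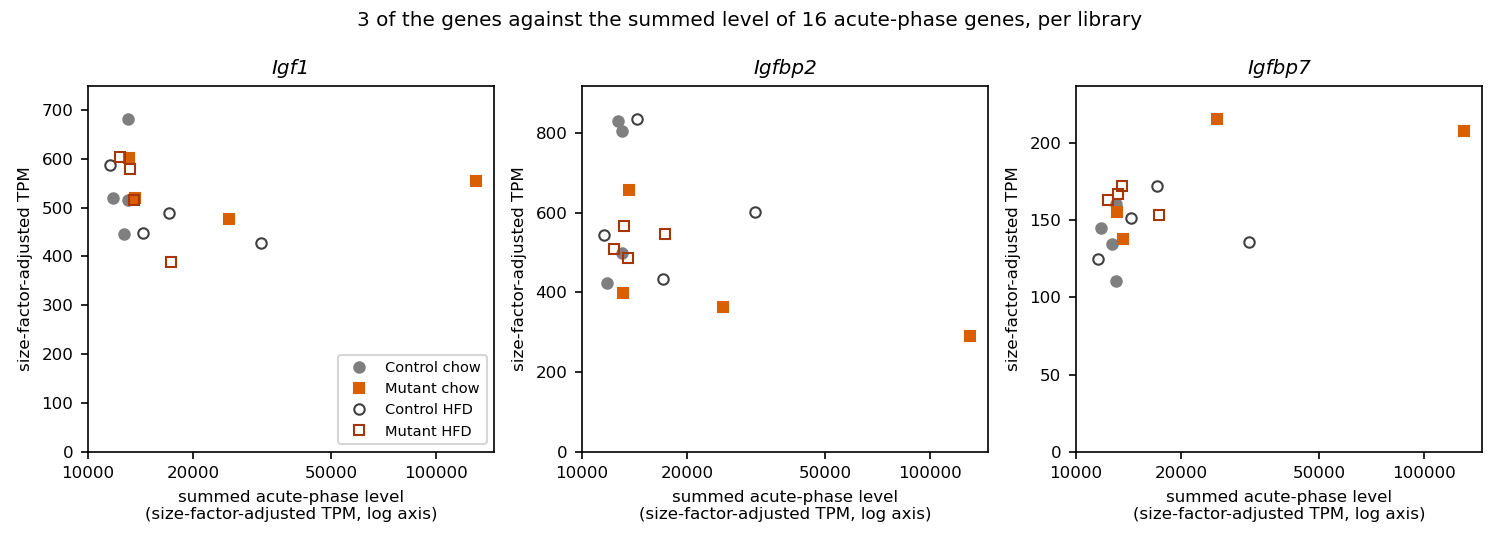
Size-factor-adjusted TPM of Igf1, Igfbp2 and Igfbp7 (vertical axes, from 0) against the summed level of 16 acute-phase genes (horizontal log axis) in the 16 libraries. The Mutant_Chow libraries at 25473 and 129737 have the highest Igfbp7 values (215 and 208), and the lowest Igfbp2 value (291) belongs to the library at 129737, whereas the Control_HFD library at 31389 has 136 and 602.

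Markers of other liver cells were set beside the chow difference of Igfbp7. The summed level of 8 endothelial markers was 143 to 247 in Control_Chow and 190 to 263 in Mutant_Chow, with none of the 8 genes at an unadjusted p under 0.05 and a median log2 fold change of 0.15. For 8 markers of Kupffer cells, the liver macrophages, the sums were 186 to 575 in Control_Chow. In Mutant_Chow replicates 1 to 4 they were 741, 854, 294 and 448. Of the 8 genes, 1 was higher at an unadjusted p under 0.05, and the median was 0.65. Over all tested genes 6.08% had such a p between genotypes on chow, 4.23% were higher at it, and the median was 0.020. For 10 stellate and matrix cell markers the sums were 278 to 426 and 321 to 421, with none of 10 and a median of -0.012. Mutant_Chow replicates 1 and 2, the highest of their group in Igfbp7, were also its highest in the Kupffer cell sums. The same held for the endothelial (263 and 250), stellate and matrix (421 and 417) and cholangiocyte sums (37.8 and 45.7). In the hepatocyte sums these 2 libraries were the lowest of their group (73429 and 61388). Most of that sum was Alb, with a mean of 63132 in Mutant_Chow against 80747 for the sum. Being highest in Mutant_Chow was thus not particular to the Kupffer cell markers. Defining markers of each type were above 0 in every library, from 14.7 for Stab2 in endothelium, 52.4 for Clec4f in Kupffer cells and 2.45 for Lrat in stellate cells, and the part of these cells in the Igfbp7 values was not tested.

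The 5 binding protein transcripts together summed to 1853 ± 204 (SD, n = 16), with group means from 1764 in Mutant_Chow to 1928 in Mutant_HFD and overlapping ranges. Igfbp4 made up 57.5% of the sum, Igfbp2 29.4%, Igfbp7 8.57%, Igfbp3 2.26% and Igfbp1 2.25%. The Igfbp1 share was 2.65% ± 1.61 in Control_Chow and 4.34% ± 2.02 in Mutant_Chow, and it was 0.970% ± 0.559 and 1.05% ± 0.304 in controls and mutants on HFD (SD, n = 4). The Igfbp2 share was 34.8% ± 6.21 in Control_Chow and 24.03% ± 7.87 in Mutant_Chow, while the HFD groups had 31.4% ± 6.36 and 27.4% ± 1.74. Igf1 was 0.287 ± 0.0611 of the binding protein sum, and its group means lay between 0.260 in Control_HFD and 0.309 in Control_Chow. These are shares of transcripts, and protein in blood was not measured here.

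**Figure D4:**
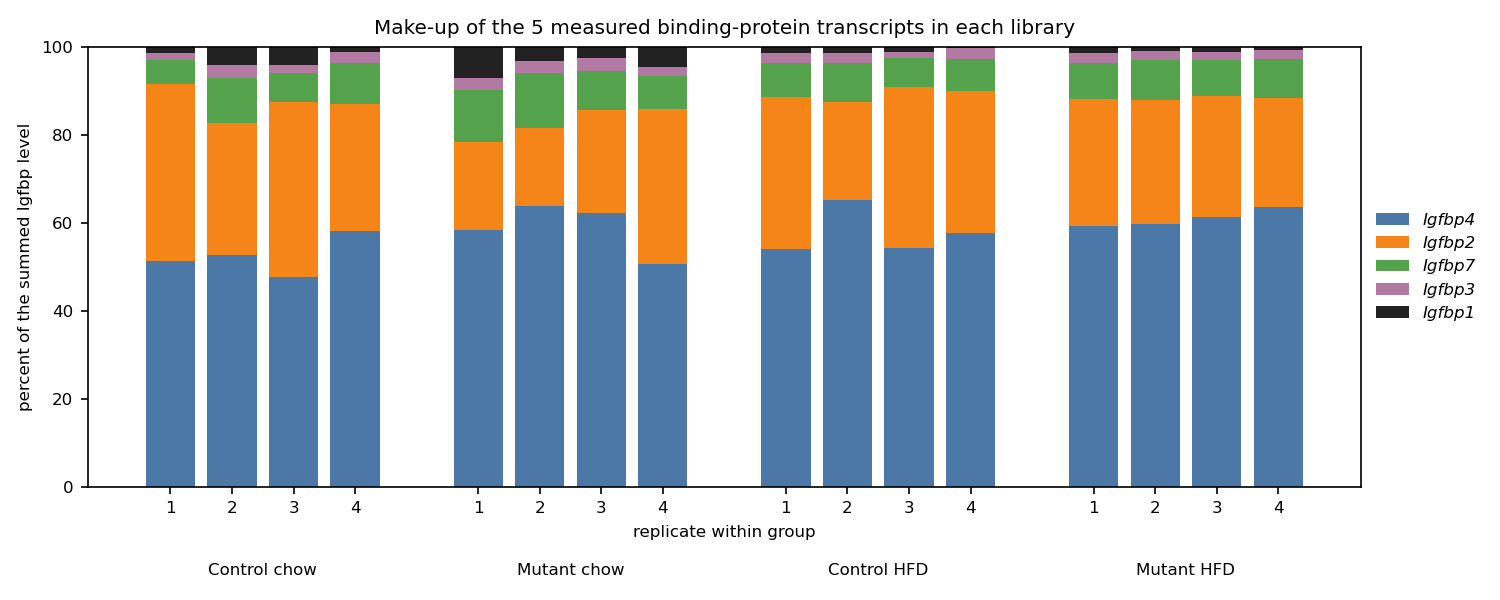
Percent of the summed level of the 5 binding protein transcripts (vertical axis, from 0) held by each gene in the 16 libraries, by group and replicate. Igfbp4 holds between 47.7% and 65.3% of the sum in every library, and Igfbp1 ranges from 0.163% to 7.07%.

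Within HFD, Igf1 was also compared between the title series, a comparison added after seeing the data. The lower-numbered libraries had 427, 489 and 449 in controls and 388 in the mutant. The higher-numbered libraries had 588 in the control and 604, 580 and 516 in mutants. The ranges did not overlap between series (35.6% of all genes did not), whereas within the lower-numbered series the mutant was below all 3 controls and within the higher-numbered series the control lay among the mutants. With the group means in the fit, the higher-numbered series was higher by 0.46 (SE 0.137, 95% interval 0.16 to 0.75, limma adjusted p = 0.0274). Igfals was higher by 0.34 (SE 0.138, limma adjusted p = 0.093) and Igfbp1 was lower by 1.62 on the log2 scale, at -1.62 (SE 0.561, limma adjusted p = 0.0503). Thus 3 of 7 genes had an unadjusted p under 0.05 where 37.8% of all genes did, and 1 of 7 an adjusted p under 0.05 where 25.2% did. A gene that differs between these series is common, and Igf1 was not apart from the background in this.

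Summed levels of marker lists also differed between the HFD series. Summed levels in the lower-numbered and higher-numbered libraries were 58636 to 74090 and 74873 to 98743 for 8 hepatocyte markers, 184 to 214 and 230 to 258 for 8 endothelial markers, and 355 to 389 and 414 to 466 for 10 stellate and matrix cell markers. They ran the other way for 8 Kupffer cell markers, 428 to 629 and 303 to 401, and for the 16 acute-phase genes, 14427 to 31389 and 11592 to 13553. None of these ranges overlapped between series, as was so for 35.6% of single genes. The hepatocyte sum was mostly Alb, which was higher by 0.55 (limma adjusted p = 0.141). Other hepatocyte markers ran against it, by smallest p Ttr (-0.51), Ass1 (-0.50) and Hnf4a (-0.28). The median of the 8 hepatocyte markers was -0.28, against 0.043 over all genes. At an adjusted limma p under 0.05, 2 of 8 endothelial and 2 of 10 stellate and matrix cell markers were higher in the higher-numbered libraries. At the same threshold 1 of 8 Kupffer cell markers and 1 of 16 acute-phase genes were lower, and 0 of 8 hepatocyte markers passed. Of all tested genes, 25.2% passed in either direction, and none of these lists exceeded that share. The part of these cells and of acute-phase expression in the Igf1, Igfals and Igfbp1 differences was not tested.

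By adjusted p, the Igf1 difference between HFD series depended on single libraries. It was 0.37 (limma adjusted p = 0.235) without Mutant_HFD replicate 1 and 0.54 (limma adjusted p = 0.121) without Control_HFD replicate 4. These are the 2 libraries that break the near coincidence of genotype and series. The number of all genes that passed also fell, from 3197 to 1862 and 713 of 12704, so this was not particular to Igf1. Without Mutant_HFD replicate 2 the Igf1 difference was 0.43 (limma adjusted p = 0.0522). Over 13 alternatives it stayed positive, from 0.37 to 0.58, and passed in 9. Igfals between series was 0.026 without Mutant_HFD replicate 1 and 0.64 without Control_HFD replicate 4, and Igfbp1 was -2.75 and -0.49. On chow, none of the 7 genes differed between title series at an adjusted p (0% of all genes) or an unadjusted p under 0.05 (11.6%), none was without overlap (6.76%), and Igf1 was 505 ± 23.5 in the 3 lower-numbered and 561 ± 87.9 in the 5 higher-numbered libraries (SD).

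**Figure D5:**
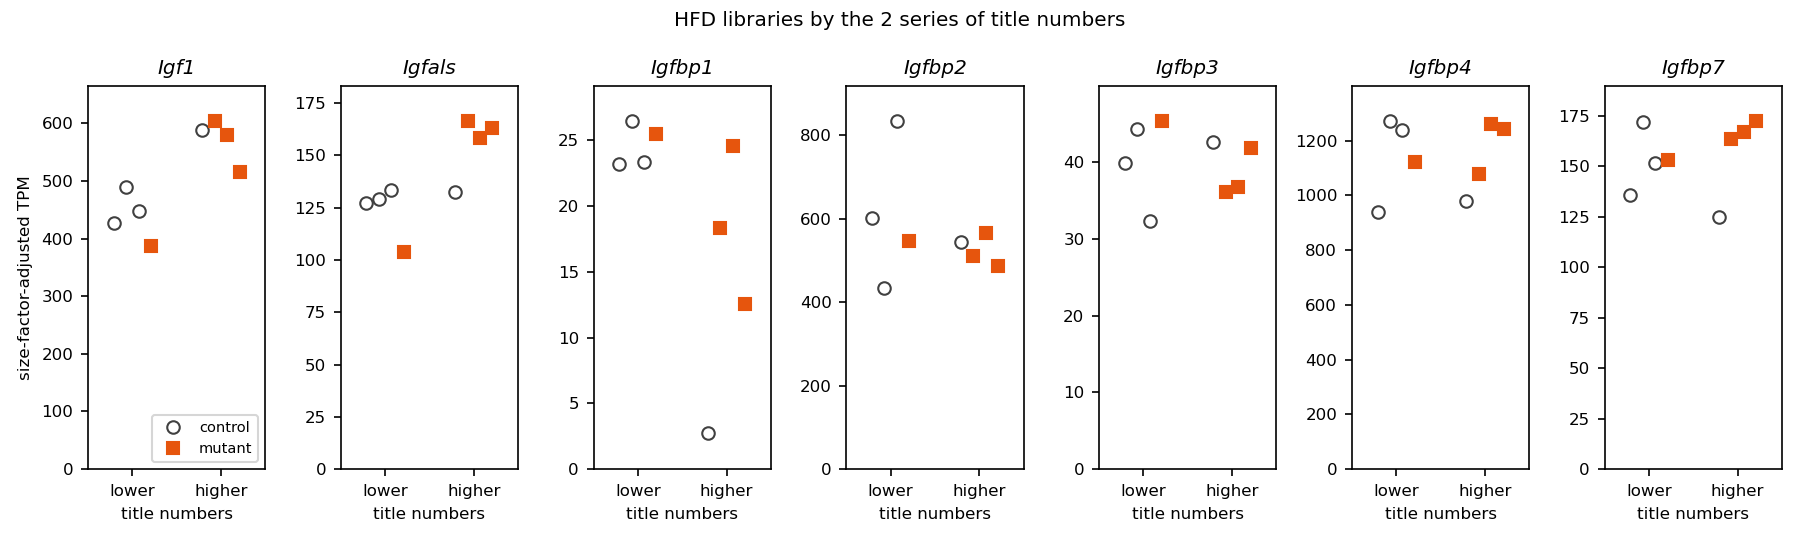
Size-factor-adjusted TPM (vertical axes, from 0) of the 7 genes in the 8 HFD libraries, by lower and higher title numbers, with controls as open circles and mutants as filled squares. Igf1 was 388 to 489 in the lower-numbered and 516 to 604 in the higher-numbered series, and the other 6 genes overlapped.

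Genes of growth hormone signalling, which drives Igf1 and Igfals, were counted over a list of 15, all of them tested. None passed an adjusted p of 0.05 in limma in the 5 comparisons of genotype and diet. On HFD, Prlr (1.09), the prolactin receptor, and Ghr (0.54), the growth hormone receptor, were higher in mutants at an unadjusted p under 0.05. Socs3 (-1.19), a feedback inhibitor of cytokine receptors, was lower (limma adjusted p = 0.527, 0.527 and 0.560 for the 3). These were 3 of 15 genes, where 8.6% of all genes had such a p, and the median of the list was 0.18. On chow 0 of 15 reached an unadjusted p under 0.05 (6.08% of all genes did), and the median was 0.24. The summed level of the list, most of it Ghr and Prlr, was 836 to 882 in Control_Chow and 994 to 1220 in Mutant_Chow. These ranges did not overlap, as was so for 3.05% of single genes. It was 679 to 880 in Control_HFD and 713 to 1497 in Mutant_HFD. In the same groups on chow, Igf1 had the same mean to within 0.0058 on the log2 scale. Between diets, 3 of 15 were lower on HFD in mutants (Socs3, Stat5b and Ptpn1) at an unadjusted p under 0.05, where 6.86% of all genes differed. For the interaction 1 of 15 was lower (Socs3, -2.12), where 4.21% of all genes differed.

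Growth hormone signalling genes also differed between the HFD title series. Higher in the higher-numbered series were Prlr by 1.29 (limma adjusted p = 0.00125), Ghr by 0.62 (limma adjusted p = 0.00724), Jak2 by 0.55 (limma adjusted p = 0.0125) and Socs2 by 1.68 (limma adjusted p = 0.0253). Socs2 is a direct target of STAT5 and a brake on the growth hormone receptor. These 4 of 15, with 0 lower, passed where 25.2% of all genes did in either direction and 13.5% did upwards. Their direction was that of Igf1 and Igfals, and the median of the list was 0.20 against 0.043 over all genes.

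The IGF system outside the 7 genes was counted over a list of 16, of which 13 were listed in liver and 10 were tested. None passed an adjusted p of 0.05 in limma between genotypes or diets. Igf2, the fetal growth factor that adult rodent liver hardly expresses, ranged from 0.490 to 4.40 over the libraries. It was higher in mutants on chow by 0.96 (SE 0.234, limma adjusted p = 0.449) and lower on HFD than on chow in mutants, at -0.73 (limma adjusted p = 0.623). Irs1, the adaptor of the insulin and IGF-1 receptors, was higher in mutants on HFD by 0.54 (limma adjusted p = 0.527) and lower on HFD in controls, at -0.47 (limma adjusted p = 0.28), as was Irs2, at -0.41 (limma adjusted p = 0.313). The IGF-1 receptor Igf1r did not pass the filter, with a median of 0.571, while the insulin receptor Insr had 25.2. Between the HFD title series, Ide, Insr and Irs1 were higher by 0.54, 0.59 and 0.46 (limma adjusted p = 0.0177, 0.0239 and 0.0427), where Ide encodes the insulin-degrading enzyme. These were 3 of 10 tested genes, with 0 lower, where 25.2% of all genes passed in either direction and 13.5% were higher.

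Genes of the insulin and fasting response, 16 of 16 tested, were set beside Igfbp1. Between diets none of the 16 had an unadjusted limma p under 0.05, in controls or in mutants (12.9% and 6.86% of all genes did), and the medians were 0.16 and 0.11. The gluconeogenic gene Pck1, which insulin represses as it does Igfbp1, differed by 0.25 in controls and 0.011 in mutants (limma adjusted p = 0.807 and 0.999), against -1.39 and -1.81 for Igfbp1. Foxo1 differed by 0.039 and 0.12 (limma adjusted p = 0.925 and 0.919). Both genes were named after values were seen. The part of insulin or of feeding in the Igfbp1 difference between diets was not tested. The labels do not give the feeding state at collection. Between genotypes on HFD, Trib3 was lower (-0.91) and Ppargc1a higher (0.48) in mutants at an unadjusted p under 0.05 (limma adjusted p = 0.56 and 0.575). There 8.6% of all genes differed. On chow none of the 16 differed at that p (6.08% of all genes did). For the interaction 1 of 16 was higher and 1 lower (4.21% of all genes differed). Between the HFD title series, 2 of 16 were higher and 3 lower in the higher-numbered libraries at an adjusted p, where 25.2% of all genes passed in either direction. Pck1 was lower, at -1.10 (limma adjusted p = 0.0449), as were Ddit3 (-0.92) and Atf4 (-0.51), both stress-induced transcription factors, and Hif1a was higher (0.77, limma adjusted p = 0.00143).

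Pearson coefficients of log2 values over the 16 libraries, given as a description, named the genes whose pattern was most like each of the 7. Igf1 was most like Cyp4f14 (0.88), Eed, Spag9, Chmp4c and Morc3, and Igfals was most like Gna14 (0.87), Lipt2, Ankrd9, Hhip and Nsun4. Igfbp1 followed Irf2bp2 (0.83), Srrm4, Slc45a3, Errfi1 and Snrpn most closely. Igfbp2 was nearest to Tbx6 (0.92), then Hsd17b4, Eci1, Cyp4f15 and Dpys, and Igfbp4 to Trim8 (0.82), Efhd2, Gm45674, Bmf and Eif4ebp1. For Igfbp3 the nearest were Pramel34 (0.83), Inf2, Col4a2, Wdr91 and Col4a1, where Col4a1 and Col4a2 encode the chains of basement membrane collagen. For Igfbp7 they were Plvap (0.92), a protein of fenestrated endothelium, Marcks, Tmem273, Zdhhc14 and Abi3. Among the 7 themselves, Igf1 and Igfals had a coefficient of 0.56, and Igf1 ranked 401 among 12703 genes in likeness to Igfals. Igfbp2 ran against Igfbp7 (-0.75) and Igfbp3 (-0.73), and Igfbp3 and Igfbp7 were alike at 0.55. These coefficients mix genotype, diet and title series, which the libraries share.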

How the data were processed

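Total RNA from liver was made into barcoded libraries and sequenced by a provider. The authors quantified transcripts against mm10 with kallisto and analysed genes with sleuth; versions, annotation release and filter are not given in the sources used here. The deposited table gives each gene a signal in TPM-like units, adjusted between libraries by size factors, a unit inferred from fractional values and unequal column totals. Reads of near-identical transcripts were divided by estimation. All 16 columns were used, and no read depth is kept, so no counting interval was computed.

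Tests used limma 3.58.1 in R 4.3.3 on log2(value + 1), in 1 fit of 4 group means over 16 libraries, with genes at 1 or more in at least 4 libraries and p-values adjusted over all 12704 by the Benjamini-Hochberg method (threshold 0.05). Positive values are mutant minus control, HFD minus chow, or higher-numbered minus lower-numbered title series. The scale understates changes of low genes. limma stands in for the authors' sleuth test, which needs transcript-level estimates not used here. The script was tested on simulated data. The labels do not state that each library is a separate mouse, and p-values measure the spread between these libraries, which may be technical.

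The alternatives were a pseudocount of 0.1, no filter or a filter at 5, median-of-ratios scaling, totals without the 20 most abundant genes, library weights, only the groups compared, title series as a term, and each library left out. The title series comparison and the fit without Mutant_Chow replicates 1 and 2 were added after seeing the data. The 7 genes and the lists were chosen with earlier results of these data known. All 7 were named whatever their values, from each list at most 4 genes per comparison by smallest p, and for likeness the 5 genes with the highest Pearson coefficient; Pck1, Foxo1, Igf1r and Insr were named for their roles after values were seen, and Esr1 as the targeted gene. Lists covered the IGF system, growth hormone signalling, insulin and fasting response, and acute phase. Marker lists covered hepatocytes, endothelium, stellate and matrix cells, Kupffer cells and cholangiocytes. Of the cholangiocyte markers 4 were tested, with none at an unadjusted limma p under 0.05 between genotypes or diets. Over all tested genes 6.08% to 12.9% were. The cholangiocyte sums were 28.3 to 45.7 on chow and 30.1 to 45.0 on HFD. Gene positions are from GENCODE on GRCm38 and promoters from RefSeq (GRCm38.p6), which had windows for all 7 genes; the authors' annotation may differ. The unadjusted diet count of the growth hormone list in controls is not reported here.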

Additional observations from a re-analysis of the deposited data

Results flagged for a closer look

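Of 28 groups of 4 libraries (7 genes in 4 groups), 4 held a library far from the other 3, by Dixon's criterion of a gap to the nearest library above 0.829 of the range, which chance meets in about 1 in 20 groups. Igfals in Mutant_HFD was 103.8 in replicate 1, below 158, 163 and 167 in the others. Igfbp1 in Control_HFD was 2.76 in replicate 4, below 23.2, 23.4 and 26.5. Igfbp4 in Control_Chow was 744.5 in replicate 2, below 991, 1002 and 1024. Igfbp4 in Mutant_Chow was 942.8 in replicate 4, below 1055, 1069 and 1071. The first 2 libraries are those whose genotype is in the minority of their title series on HFD.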

How the results depend on the processing

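None of the 7 genes passed an adjusted limma p of 0.05 between genotypes or diets or in the interaction under any alternative. Log2 fold changes that turned sign did not pass before or after, and the cause was not tested.

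With library weights these were Igfbp3 (-0.0022) by diet in controls; Igf1 (0.031), Igfals (0.12) and Igfbp7 (0.049) by diet in mutants; Igfals (0.10) in the interaction; and Igfbp1 (-0.26) and Igfbp3 (-0.026) by genotype on HFD. Median-of-ratios scaling turned Igfbp3 by genotype on HFD (-0.020) and Igf1 by genotype on chow (-0.031). The title series as a term turned Igf1 (-0.11), Igfbp1 (0.28) and Igfbp4 (0.0039) in the interaction, Igf1 (-0.14) and Igfals (-0.014) by genotype on HFD, and Igf1 on chow (-0.031). Totals without the 20 most abundant genes shifted the median of all genes by diet in controls to -0.11 and in the interaction to 0.15. Of genes at an unadjusted p under 0.05 by genotype on chow, 537 of 772 were higher in mutants, and 320 of 755 with these totals. They turned Igfals (-0.12), Igfbp3 (-0.10) and Igfbp7 (-0.038) by diet in controls, Igf1 (0.0055) and Igfals (0.030) by diet in mutants, Igfals (0.15), Igfbp4 (0.14) and Igfbp7 (0.0002) in the interaction, Igf1 by genotype on chow (-0.088), and Igfbp2 (0.015), Igfbp3 (0.068), Igfbp4 (0.056) and Igfbp7 (0.041) between HFD title series. Without Mutant_Chow replicates 1 and 2, diet in mutants was 0.036 for Igfals and 0.16 for Igfbp7, and the interaction was 0.029 and 0.075.

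Leaving out 1 library at a time turned the sign in these ranges. By genotype, Igf1 on chow ran from -0.080 to 0.12, and on HFD Igfbp1 from -0.30 to 0.65, Igfbp2 from -0.30 to 0.012 and Igfbp3 from -0.082 to 0.065. By diet in controls, Igfals ran from -0.056 to 0.039, Igfbp2 from -0.24 to 0.083, Igfbp3 from -0.10 to 0.11 and Igfbp7 from -0.014 to 0.17, and in mutants Igf1 from -0.14 to 0.076 and Igfals from -0.14 to 0.13. The interaction ran from -0.035 to 0.22 for Igf1, -0.15 to 0.12 for Igfals and -0.12 to 0.059 for Igfbp4. Between HFD title series, Igfbp2 ran from -0.22 to 0.0058, Igfbp3 from -0.24 to 0.14, Igfbp4 from -0.22 to 0.086 and Igfbp7 from -0.29 to 0.13.

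Between HFD title series 1 of the 7 genes passed, where 3197 of 12704 genes did. With a pseudocount of 0.1, a filter at 5 or totals without the 20 most abundant genes, 2 passed. Over all genes 3217 of 12704, 2981 of 9231 and 3291 of 12704 did. With 1 library left out the count ran from 0 (Mutant_HFD replicate 2) to 2 (Mutant_HFD replicate 3), where 2704 and 2755 of 12704 genes passed. Igf1 between these series was 0.41 with median-of-ratios scaling (limma adjusted p = 0.0512). Among all genes, library weights moved the adjusted count by genotype on HFD from 2 to 3926 and by diet in controls from 0 to 2264, with none of the 7 among them. Both chow differences at an unadjusted p under 0.05 were lost when Control_Chow replicate 1 or 3, or Mutant_Chow replicate 1 or 2, was left out, and Igfbp1 by diet in controls when Control_Chow replicate 2 or 3 or Control_HFD replicate 4 was. No paired analysis was possible because the labels carry no replicate numbers. Read depth is not kept, so limits of detection were not computed.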
